A study of Mus musculus with 27 samples.

Results

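The comparison described here set bone marrow-derived macrophages (BMDMs) stimulated for 0.5 h with lipopolysaccharide (LPS) directly against BMDMs stimulated for 0.5 h with interleukin-4 (IL-4). BMDMs are primary mouse macrophages grown from bone marrow. The members were 6 samples of the 27 in the series, 3 with LPS and 3 with IL-4, and the 11941 genes of the 45070 in the table whose normalised read count reached 10 in 3 or more of these 6 samples. All cells were wild type and had first been kept for 1 h in DMSO, the solvent used for kinase inhibitors in other experiments of the study. LPS or IL-4 was then given at 10 ng/ml, and the 3 untreated samples, which had DMSO and no stimulus, serve below as a reference level. The RNA was chromatin-associated, a fraction rich in transcripts that are still being made and in introns not yet removed, so the values follow transcription more closely than those of mature mRNA would. The labels number the replicates 1 to 3 but do not say that they were separate cultures or animals, so p-values measure the spread between these samples, which may be technical.

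LPS, a component of the outer membrane of Gram-negative bacteria, is sensed by the receptor TLR4 with its partners CD14 and MD-2. The adaptors MyD88 and TRIF then pass the signal to the IKK and MAP kinases, which switch on transcription factors of the NF-κB, AP-1 and IRF families. IL-4 binds a receptor made of the IL-4Rα chain and the common γ chain, which activates the kinases JAK1 and JAK3 and the transcription factor STAT6, and it is known for turning macrophages to an alternative program of scavenger receptors, arginine metabolism and feedback inhibitors of the SOCS family.

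Some of the short DNA motifs that these factors are known to bind can be read in the promoters of members described below. The windows are shown because their genes carry the differences reported here, and each is 30 bases of the RefSeq promoter sequence (GRCm38.p6) written 5′ to 3′ on the gene's strand. Capitals mark the match to the NF-κB consensus in the first group. The genes are Nfkbia and Tnip3, which encode inhibitors of NF-κB signalling, the NF-κB subunits Nfkb2 and Rel, and the chemokines Cxcl1, Cxcl2 and Cxcl10.
Nfkbia, chr12:55492657-55492686, minus strand: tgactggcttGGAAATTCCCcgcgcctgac
Tnip3, chr6:65590334-65590363, plus strand: gagacatcctGGGAAATCCCagttacatgg
Nfkb2, chr19:46304688-46304717, plus strand: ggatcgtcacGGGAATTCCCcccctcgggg
Rel, chr11:23771042-23771071, minus strand: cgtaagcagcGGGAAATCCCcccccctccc
Cxcl1, chr5:90891164-90891193, plus strand: cctgtactccGGGAATTTCCctggcccgga
Cxcl2, chr5:90903792-90903821, plus strand: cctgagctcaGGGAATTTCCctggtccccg
Cxcl10, chr5:92348973-92349002, minus strand: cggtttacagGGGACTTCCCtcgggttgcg

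In the next group capitals mark the palindrome TTCNNNNGAA, the spacing that STAT6 is known to favour, in promoters of genes that were higher after IL-4 than after LPS. Among them Tgds did not pass as above untreated after IL-4. The motifs did not divide by stimulus. Tnfaip3, Il18 and Isg20, which were higher after LPS, also held this palindrome. The NF-κB consensus was also found in Pdcd1lg2, Il4ra and Ms4a4a, which were higher after IL-4.
Pdcd1lg2, chr19:29410827-29410856, plus strand: catgctccagTTCCTCAGAAaccattctgg
Plekhf1, chr7:38228094-38228123, minus strand: ccgcgcacatTTCTGGAGAActcgggccgg
Tgds, chr14:118132817-118132846, minus strand: cctctgcgacTTCCTTTGAAcgtgtcgggg
Tmem26, chr10:68723695-68723724, plus strand: ctttgaagagTTCTCTGGAAgttggagggg

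A last group shows matches to 2 further elements. Capitals mark the cyclic AMP response element TGACGTCA (CRE), bound by CREB and ATF proteins, in Btg2 and Dusp1, and the CArG box, bound by serum response factor, in Dusp5 and Zfp36.
Btg2, chr1:134079303-134079332, minus strand: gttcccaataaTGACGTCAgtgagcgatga
Dusp1, chr17:26508597-26508626, minus strand: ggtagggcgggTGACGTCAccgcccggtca
Dusp5, chr19:53529053-53529082, plus strand: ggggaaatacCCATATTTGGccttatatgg
Zfp36, chr7:28379267-28379296, minus strand: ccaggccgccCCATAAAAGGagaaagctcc

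The cells carried the markers of macrophages. Csf1r, the receptor of the growth factor that BMDMs depend on, read 3054, 3149 and 3505 normalised read counts after LPS and 2498, 2034 and 2203 after IL-4, and Adgre1, which encodes F4/80, lay between 5133 and 5956 in all 6 samples. Of 14 macrophage markers 13 passed the filter. None of the B cell, neutrophil, dendritic cell or mast cell markers passed it, and CD3 chains, haemoglobins and Ly6g were at or near 0. The 10 neutrophil markers summed to 10 to 63 after LPS, 8 to 49 after IL-4 and 7 to 18 in untreated cells. For the 6 dendritic cell markers the sums were 20 to 25, 20 to 31 and 11 to 20. Of 6 erythroid markers 1 passed, Alas2, which encodes the erythroid enzyme of haem synthesis and held all of that list's counts in the 6 samples. It read 67, 92 and 85 after LPS, 107, 124 and 113 after IL-4 and 73, 91 and 94 in untreated cells (-0.50 ± 0.23, adjusted p = 0.064), and passed 0.05 under 5 alternatives, the replicate block among them (adjusted p = 0.010). Alas2 overlaps another gene on the other strand, and its part in the results was not tested. Among T and NK cell markers 1 of 9 passed (Cd247), and among stromal markers 2 of 7 did, Col1a1 and Col1a2, which were highest in replicate 1 of both groups (61 and 66 normalised read counts for Col1a1, against 13 to 20 in replicates 2 and 3). The 7 stromal markers summed to 41 to 155 after LPS, 43 to 201 after IL-4 and 50 to 100 in untreated cells. The 9 T and NK cell markers, of which Cd3e, Cd3g, Gzma, Klrb1c and Ncr1 were at 0, summed to 37 to 70 after LPS, 14 to 31 after IL-4 and 18 to 33 in untreated cells, most of it from Cd247, and their part in the results was not tested.

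The samples differed in total and in replicate spread. The normalised read counts summed to 3571492 to 3671910 per sample after LPS, 2749777 to 2790981 after IL-4 and 2488987 to 2578543 in untreated cells. Since the deposited values were already scaled by the authors, the read depth of the samples is unknown. Of the summed increase from IL-4 to LPS over the genes that were higher after LPS, 12.3% lay in 10 genes and 43.6% in 100 genes. Replicate 1 stood apart in every group: among genes averaging 1000 or more, the SD of the log2 ratio to replicate 1 was 0.416 to 0.440 in the LPS and IL-4 groups, against 0.171 (LPS) and 0.0999 (IL-4) between replicates 2 and 3.

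Of the 11941 genes tested, 6802 (57.0%) differed between the stimuli (limma, Benjamini-Hochberg adjusted p under 0.05 over all tested genes). Higher values after LPS were found for 2390 genes (20%) and higher values after IL-4 for 4412 (36.9%). Of the former, 292 were under 10 in every IL-4 sample, and of the latter 644 were under 10 in every LPS sample. These genes passed the filter only through the higher group, which largely sets their direction. The large differences lay on the LPS side. A difference of at least 2-fold was called for 1414 genes (11.8%) in favour of LPS and 2653 (22.2%) in favour of IL-4, but at 8-fold there were 311 against 138 genes, and at 32-fold 60 against 3. Without replicate 1 of each group the counts were 2672 and 4593. The 3 LPS values lay wholly above the 3 IL-4 values for 22.6% of tested genes and wholly below for 38.8%. The plot of LPS against IL-4 means shows this asymmetry.

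**Figure D1:**
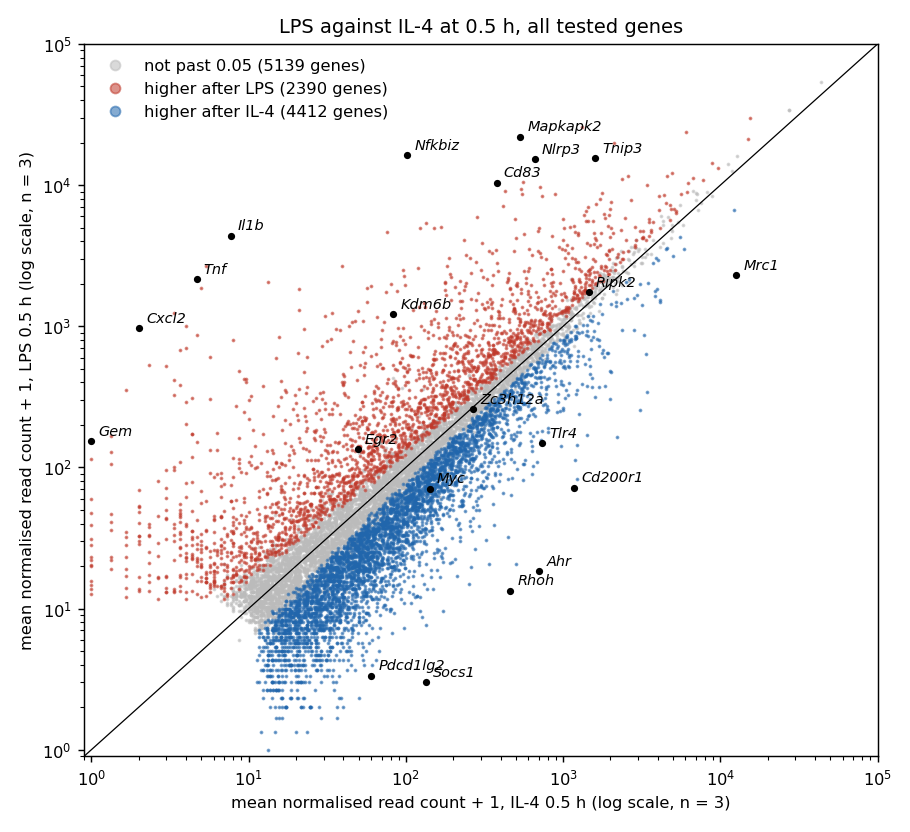
Each point is 1 of the 11941 tested genes, placed by its mean normalised read count plus 1 after IL-4 (x axis) and after LPS (y axis), both on log scales and with n = 3 per group. Red points (2390) were higher after LPS, blue points (4412) higher after IL-4 and grey points did not pass 0.05; the red cloud reaches much farther from the diagonal than the blue one.

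The balance of directions depended on how samples were scaled. On the authors' scale 35.1% of the called genes were higher after LPS and the median log2 difference over all tested genes was -0.20. With median-of-ratios scaling these became 48.1% and 0.03, with every sample set to the same total 20.1% and -0.58, and among genes with a mean of at least 50 on the authors' scale 45.0% and -0.05. Log2 differences below are on the authors' scale, as LPS minus IL-4 on log2(value + 1), and can be read against the median of -0.20. They understate the change of genes with low values. In bulk samples fewer cells of a type and less RNA per cell cannot be told apart.

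The reference level shows on which side the differences arose, with the caution that the comparisons below share samples with each other: both use the same 3 untreated samples, and each shares its stimulated samples with the direct comparison. Against untreated cells, 2719 genes (22.8%) were higher and 4563 (38.2%) lower after LPS, while 913 (7.65%) were higher and 710 (5.95%) lower after IL-4. The IL-4 counts moved with the samples left out: they were 461 and 162 without replicate 2, 523 and 215 without replicate 3, and 1245 and 1214 without replicate 1. Those fits leave fewer samples in every group. Without only IL-4 replicate 1, 2 or 3 the counts were 831 and 659, 761 and 475, and 766 and 515. The part of any replicate was not tested. Scaling moved the LPS counts, to 3495 and 3798 with median-of-ratios scaling and to 1525 and 6699 with equal totals, and the IL-4 counts, to 867 and 725 and to 751 and 1286. Of the 2390 genes higher after LPS than after IL-4, 2081 (87.1%) were above untreated after LPS and 222 (9.29%) were below untreated after IL-4. Of the 4412 genes higher after IL-4, 3815 (86.5%) were below untreated after LPS and 478 (10.8%) were above untreated after IL-4. These shares are descriptions, since the gene sets were chosen with the same stimulated samples.

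**Figure D2:**
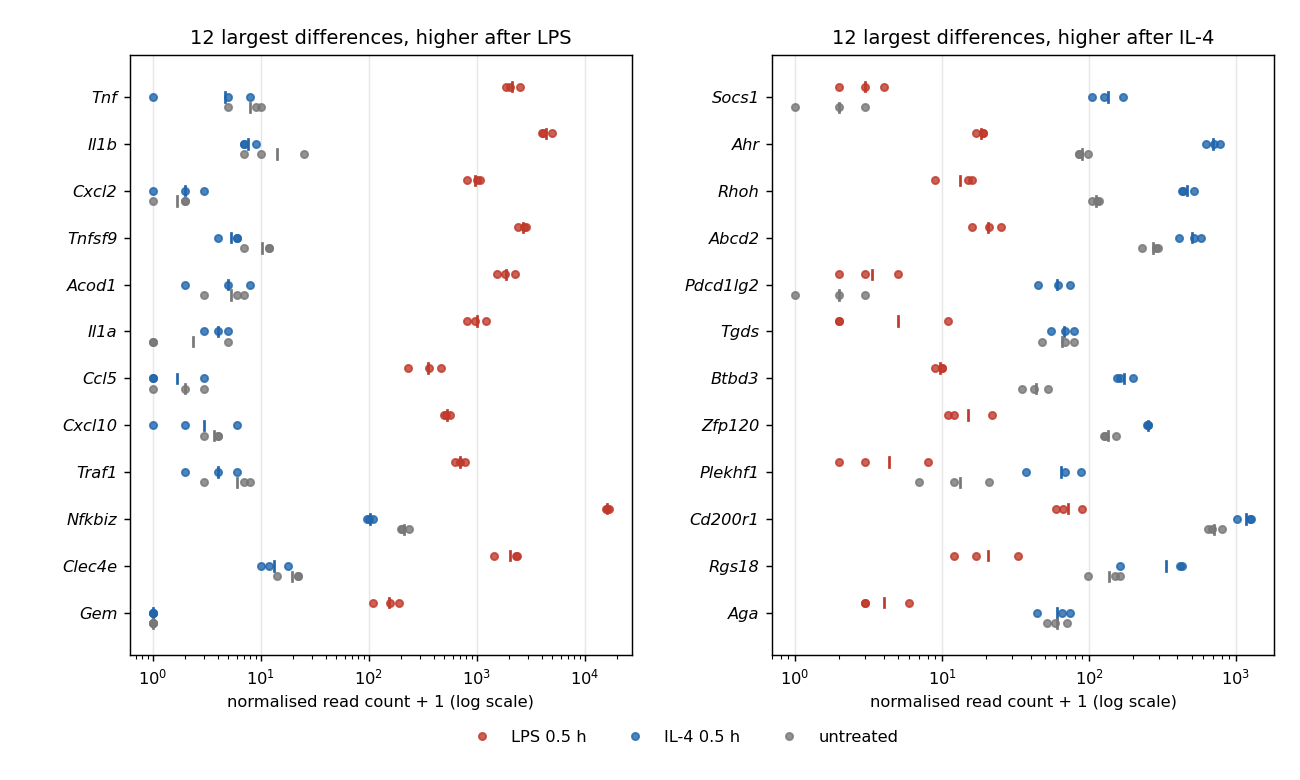
Normalised read counts plus 1 (x axis, log scale) of the 12 protein-coding genes with the largest difference in each direction, 1 dot per sample and a vertical tick at the mean of each group (n = 3; red LPS, blue IL-4, grey untreated). The choice of these genes required that the red and blue dots of a row do not overlap. On the left the blue dots lie near or below the grey ones, and on the right the red dots lie below the grey ones for most genes.

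The genes that stood highest after LPS included cytokines, chemokines and NF-κB regulators. The leading genes of both sides were picked for having no overlap between LPS and IL-4 values, so that separation was fixed by the choice. Except for Nfkbiz and Clec4e, those on the LPS side were under 10 in every IL-4 sample. They thus passed the filter only through the LPS group. Tnf, the founding cytokine of its family (chr17:35199367-35202007, minus strand), read 1881, 2527 and 2027 normalised read counts after LPS, 7, 0 and 4 after IL-4, and 4, 9 and 8 in untreated cells. All LPS values exceeded all others by far, with a log2 difference of 9.28 ± 0.55 (SE, limma adjusted p = 1.3e-12). Il1b, the inflammasome-processed cytokine interleukin-1β, read 3991, 4997 and 4151 after LPS and 6, 6 and 8 after IL-4, a log2 difference of 9.16 ± 0.45. Cxcl2, a neutrophil chemokine, read 817, 1017 and 1068 after LPS and 1, 2 and 0 after IL-4, which is at least 322-fold higher when the IL-4 group is set to a floor of 3 counts in each library.

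Among the other leading genes, Tnfsf9, which encodes the T cell co-stimulator 4-1BB ligand, read 2418, 2722 and 2870 after LPS and 5, 3 and 5 after IL-4 (log2 difference 8.99 ± 0.27). Acod1, the enzyme that makes itaconate, read 1841, 2249 and 1542 after LPS and 7, 4 and 1 after IL-4 (8.75 ± 0.52). The groups did not come near each other for either gene. Nfkbiz, a nuclear IκB protein that acts with NF-κB on secondary genes (chr16:55811377-55838641, minus strand), had the smallest SE of the 12: it read 16281, 15807 and 16819 after LPS, 109, 95 and 100 after IL-4, and 199, 202 and 233 in untreated cells, a log2 difference of 7.32 ± 0.17 (limma adjusted p = 2.3e-19). Against untreated cells it fell by 1.05 on the log2 scale after IL-4 (SE 0.17, adjusted p = 6.6e-05). Gem, a small GTPase, was at 0 in all 3 IL-4 and all 3 untreated samples and read 189, 109 and 158 after LPS, at least 50.7-fold higher. The remaining 5 were Il1a, Ccl5, Cxcl10, Traf1 and Clec4e, a receptor for mycobacterial cord factor, with log2 differences between 7.28 and 7.99. Il1b, Tnfsf9, Acod1, Il1a, Ccl5, Cxcl10 and Traf1 each overlap another annotated gene on the other strand, and whether counting used strand is not stated.

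On the IL-4 side the largest difference was that of Socs1, which encodes a feedback inhibitor of JAK kinases (chr16:10783808-10785536, minus strand). It read 104, 125 and 169 after IL-4, 3, 1 and 2 after LPS, and 0, 2 and 1 in untreated cells. Only the IL-4 samples held more than 3 counts, and the level was at least 44.2-fold higher than after LPS (log2 difference -5.51 ± 0.42, limma adjusted p = 1.1e-10). Pdcd1lg2, the inhibitory ligand PD-L2 of the receptor PD-1 (chr19:29410919-29472927, plus strand), behaved alike, with 44, 73 and 61 after IL-4, 2, 4 and 1 after LPS, and 1, 0 and 2 in untreated cells (-4.25 ± 0.42).

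Most other leading IL-4 genes were lower after LPS than in untreated cells. Ahr, the aryl hydrocarbon receptor (chr12:35497979-35534989, minus strand), read 773, 627 and 706 after IL-4, 84, 85 and 97 in untreated cells, and 16, 18 and 18 after LPS. The 3 groups were thus fully separate, and the direct log2 difference of -5.26 ± 0.19 (adjusted p = 2.7e-16) was made of a value 2.97 above untreated after IL-4 and one that fell by 2.29 after LPS. Rhoh, a GTPase-deficient signalling protein of blood cells, showed the same order, with 428, 520 and 432 after IL-4, 116, 113 and 103 in untreated cells and 8, 14 and 15 after LPS (-5.15 ± 0.20). In contrast, Tgds and Aga, the lysosomal enzyme aspartylglucosaminidase, differed from untreated cells on the LPS side: Aga read 43, 73 and 64 after IL-4, 51, 70 and 58 in untreated cells, and 2, 5 and 2 after LPS (-3.98 ± 0.36). Its IL-4 and untreated values overlapped.

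The other 6 of these 12 were the peroxisomal transporter Abcd2, Btbd3, the zinc finger gene Zfp120, Plekhf1, the inhibitory receptor Cd200r1 and Rgs18, a regulator of G protein signalling, with log2 differences from -4.61 to -4.03. Cd200r1 read 1012, 1239 and 1268 after IL-4, 799, 686 and 649 in untreated cells and 88, 59 and 66 after LPS. Against untreated cells 10 of the 12 genes passed as lower after LPS, and 8 of the 12 passed as higher after IL-4. None of the 24 leading genes lost its call or changed direction under any of the 20 alternative settings, wherever it was still tested. They were chosen as the largest differences in these same samples, so little else could come out, and this is a description. On the IL-4 side Socs1, Pdcd1lg2, Btbd3, Plekhf1 and Aga were under 10 in every LPS sample. These passed the filter only through the IL-4 group. The series also holds 3 samples each after 4 h of LPS and of IL-4, given in the same way, and over all 11941 genes the difference between the stimuli at 0.5 h departed from that at 4 h in 6748 (56.5%, limma adjusted p under 0.05).

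Among the gene lists, which were chosen with earlier results of these data known, that of NF-κB subunits and inhibitors leaned most uniformly to LPS. Besides the genes it is named for, this list held other regulators, among them Traf1, Traf2, Birc2 and Birc3. The counts of each list below can be read against all tested genes, of which 20% were higher after LPS and 36.9% after IL-4. Of 22 listed genes 21 were tested, 20 were higher after LPS, none was higher after IL-4 (19 and 1 with equal totals), and the median log2 difference was 3.27. After Traf1 and Nfkbiz the inhibitors led. Tnfaip3, which encodes the ubiquitin-editing enzyme A20, read 4890, 4708 and 4474 after LPS, 114, 63 and 49 after IL-4 and 28, 20 and 15 in untreated cells (log2 difference 6.03 ± 0.34). Nfkbia, which encodes IκBα, read 1521, 2081 and 2006 after LPS, 69, 41 and 57 after IL-4 and 49, 55 and 55 in untreated cells (5.06 ± 0.24), so that its IL-4 and untreated values overlapped. Nfkbie (5.41 ± 0.28), Nfkbib (4.72 ± 0.19), Nfkbid (4.56 ± 0.17) and Tnip1 (4.45 ± 0.15) followed.

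The subunits differed less. Relb (3.31 ± 0.32), Nfkb2 (3.25 ± 0.24), Rela (2.47 ± 0.16) and Nfkb1 (2.16 ± 0.12) were higher after LPS. Rel, the c-Rel subunit, read 4814, 4832 and 4156 after LPS, 1713, 1508 and 1481 after IL-4, and 402, 461 and 508 in untreated cells. Its values formed 3 separate groups, with a direct difference of 1.55 ± 0.11, and it rose against untreated after IL-4 as well, by 1.78 (SE 0.11, adjusted p = 6.9e-11). Tnip3, an A20-binding inhibitor, had the same order, with 7792, 17483 and 21163 after LPS, 1395, 1723 and 1654 after IL-4, and 226, 265 and 299 in untreated cells (3.17 ± 0.25). The exception was the deubiquitinase Cyld, with 156, 257 and 275 after LPS and 252, 303 and 281 after IL-4 (-0.32 ± 0.16, adjusted p = 0.096), which passed 0.05 under 5 of the alternatives, the replicate block (adjusted p = 0.011) and the fits without LPS replicate 2 (-0.42) or LPS replicate 3 (-0.47) among them.

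Immediate early transcription factors, which are transcribed without new protein synthesis, were tested for 22 of 24 listed genes. Higher values after LPS were called for 17, a higher value after IL-4 for 1, and the median was 3.06. Of those tested, 7 were under 10 in every IL-4 sample, so they entered through the LPS group. Egr1, an ERK-responsive zinc finger factor, read 291, 233 and 380 after LPS, 12, 4 and 11 after IL-4 and 2, 1 and 18 in untreated cells (5.01 ± 0.66). Nr4a1, an orphan nuclear receptor, read 463, 422 and 560 after LPS and 11, 5 and 7 after IL-4 (5.85 ± 0.44). Junb read 296, 309 and 422 after LPS and 16, 16 and 17 after IL-4 (4.29 ± 0.29), and Fosb, at most 1 in each IL-4 sample, was at least 11.2-fold higher after LPS.

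Some of these factors had risen after both stimuli. Egr2 read 124, 138 and 140 after LPS, 54, 47 and 44 after IL-4, and 2, 1 and 5 in untreated cells, so both stimulated groups lay above the reference, by 5.35 and 3.90 on the log2 scale, and differed from each other by 1.46 ± 0.33 (adjusted p = 0.00059). Myc, the growth-promoting factor, was the member with a higher value after IL-4. It read 46, 77 and 86 after LPS, 117, 145 and 160 after IL-4 and 6, 14 and 9 in untreated cells (-1.04 ± 0.32, adjusted p = 0.0075), and this call was lost in 2 of the fits that leave out samples (without LPS replicate 1 and without replicate 3), with -0.77 and -1.12. Srf, which encodes serum response factor, read 33, 41 and 47 after LPS and 42, 56 and 54 after IL-4 (-0.33 ± 0.26, adjusted p = 0.29).

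The list of MAP kinase phosphatases and ERK feedback genes divided by member. Of 16 listed genes 12 were tested, 7 were higher after LPS and 2 after IL-4 (7 and 4 with equal totals), with a median of 1.85, and 3 of those tested were under 10 in every IL-4 sample. The 7 were Dusp5, Dusp1, Dusp2, Dusp8 and Dusp16 and, with smaller differences, Spred2 (2.38) and Spred1 (1.32), which are no phosphatases but inhibitors of the Ras-ERK pathway. Dusp1, a nuclear phosphatase of p38 and JNK, read 1443, 1916 and 2184 after LPS, 10, 22 and 28 after IL-4 and 14, 22 and 39 in untreated cells (6.55 ± 0.37). Dusp5, a nuclear ERK phosphatase, read 702, 930 and 777 after LPS and 8, 6 and 7 after IL-4 (6.65 ± 0.36), and Dusp2 was at least 34.7-fold higher after LPS. The cytoplasmic ERK phosphatases went the other way: Dusp6 read 8, 7 and 10 after LPS, 27, 40 and 45 after IL-4 and 17, 19 and 39 in untreated cells (-2.02 ± 0.38), and Dusp7 differed by -1.80 ± 0.23. Dusp4 had left the untreated level after both, with 76, 83 and 109 after LPS, 94, 123 and 113 after IL-4 and 9, 7 and 10 in untreated cells, and its stimulated groups overlapped (-0.31 ± 0.26, adjusted p = 0.34).

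Of 27 listed cytokines and growth factors 18 were tested, 17 were higher after LPS and 1 after IL-4, with a median of 3.82, or 2.62 with members at 0 to 3 counts in 1 group set to their bound. Through the LPS group alone 11 of them entered. Il12b, a subunit of interleukin-12 and interleukin-23, read 115, 118 and 107 after LPS and 0 in every IL-4 and untreated sample, at least 37.8-fold higher. Il10, the anti-inflammatory cytokine, read 177, 152 and 183 after LPS, 4, 2 and 4 after IL-4 and 7, 4 and 11 in untreated cells (5.34 ± 0.27). Il6 was low, at 29, 20 and 14 after LPS and 0 after IL-4. Hbegf, an EGF receptor ligand, was the member higher after IL-4, with 69, 39 and 31 against 20, 6 and 7 after LPS and 2, 0 and 0 in untreated cells. Its difference of -2.08 ± 0.55 (adjusted p = 0.0026) did not pass without replicate 2, at -1.87. Csf1, the macrophage growth factor, varied with replicate 1: it read 315, 168 and 129 after LPS and 102, 19 and 20 after IL-4 (2.44 ± 0.66), and did not pass without replicate 2, at 2.12.

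Chemokines leaned the same way, with 13 of 22 listed genes tested, 11 higher after LPS, none higher after IL-4 and a median of 4.10 (3.58 with bounds). Of the 13, 6 were under 10 in every IL-4 sample. Ccl4, a chemokine that attracts monocytes and T cells, read 1747, 1388 and 1352 after LPS, 81, 40 and 46 after IL-4 and 15, 15 and 12 in untreated cells (4.78 ± 0.35), and Ccl3, its neighbour in the same cluster, differed by 4.10 ± 0.28. Ccl2 and Ccl7, monocyte chemokines that lie next to each other on chromosome 11, did not follow one pattern. Ccl2 read 167, 165 and 137 after LPS, 13, 21 and 42 after IL-4 and 0, 6 and 3 in untreated cells (2.73 ± 0.52, adjusted p = 0.00011). Ccl7 read 42, 58 and 43 after LPS, 35, 41 and 62 after IL-4 and 0, 2 and 2 in untreated cells. The stimulated groups of Ccl7 overlapped (0.08 ± 0.49, adjusted p = 0.91) and both stood above the reference.

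Inflammatory effector genes had the largest median of all lists, 4.64, with 23 of 26 tested, 21 higher after LPS and 1 after IL-4. Of these 23, 8 were under 10 in every IL-4 sample. Nlrp3, the inflammasome sensor, read 16319, 15974 and 13463 after LPS, 659, 630 and 687 after IL-4 and 427, 335 and 408 in untreated cells (4.53 ± 0.12). Ptgs2, which encodes cyclooxygenase-2, read 298, 422 and 432 after LPS and 5, 1 and 2 after IL-4 (6.85 ± 0.64). The co-stimulatory molecules Cd83 (4.82 ± 0.26) and Cd40 (3.89 ± 0.23) were higher after LPS but had also risen against untreated after IL-4, by 2.21 and 2.23. Cd274, which encodes PD-L1, the companion of PD-L2, was the member on the IL-4 side, at 308, 185 and 210 against 213, 90 and 106 after LPS and 51, 28 and 44 in untreated cells. These groups overlapped, and the difference of -0.85 ± 0.32 (adjusted p = 0.028) did not pass in 8 of the alternatives, among them the fits without LPS replicate 2 (-0.60), LPS replicate 3 (-0.72), IL-4 replicate 1 (-0.63), replicate 2 of all groups (-0.75) and replicate 3 of all groups (-0.78). Nos2, the inducible nitric oxide synthase, was listed at 0 in every LPS and IL-4 sample.

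**Figure D3:**
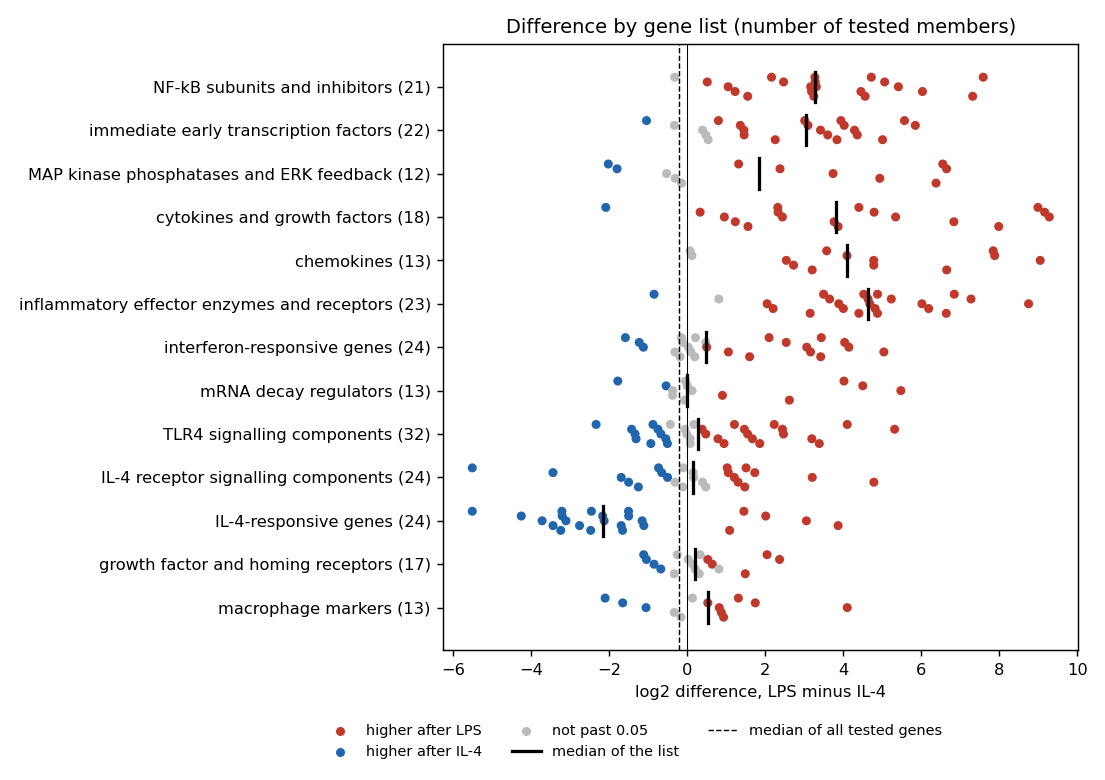
Log2 difference (x axis, LPS minus IL-4) of each tested member of 13 gene lists, with the number tested in parentheses; red, blue and grey dots were higher after LPS, higher after IL-4 and not past 0.05, the thick black bar is the median of the list and the dashed line the median of all tested genes (-0.20). The NF-κB, cytokine, chemokine and effector lists lie to the right, the IL-4-responsive list (median -2.14) to the left, and the 2 lists of signalling components spread over both sides.

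IL-4-responsive genes gave a mixed list. Of 32 listed genes 24 were tested, 19 were higher after IL-4 and 5 after LPS, with a median of -2.14. Of those tested, 7 were under 10 in every LPS sample. Against untreated cells 21 passed as higher after IL-4 and 9 as higher after LPS, in comparisons that share the untreated samples. Of all tested genes 7.65% and 22.8% did so. Mrc1, the mannose receptor CD206 and a standard mark of IL-4-treated macrophages, read 13492, 11707 and 12783 after IL-4, 2511, 1959 and 2403 after LPS, and 2386, 1541 and 1708 in untreated cells. The LPS values reached into and just above the untreated range, and the direct difference was -2.47 ± 0.16 (limma adjusted p = 1.1e-11). Mrc1 overlaps another gene on the same strand.

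The arginine transporter Slc7a2 read 184, 228 and 228 after IL-4, 38, 45 and 32 after LPS and 12, 14 and 11 in untreated cells (-2.45 ± 0.14), so LPS also raised it, by 1.55 against untreated. Rasgrp1, a Ras activator, read 98, 91 and 87 after IL-4, 14, 5 and 13 after LPS and 2, 1 and 3 in untreated cells (-3.10 ± 0.27). Tmem26, which encodes a transmembrane protein, read 42, 41 and 34 after IL-4, 3, 3 and 4 after LPS and 5, 0 and 2 in untreated cells (-3.21 ± 0.39). Batf3, Mgl2 and Socs2 held at most 3 counts in each LPS sample and were at least 9.22-fold, 7.89-fold and 4.89-fold higher after IL-4. Some well-known markers of this program had low values: Retnla averaged at most 0.333 counts in either group and Chil3 and Alox15 were listed at 0. Arg1, which encodes arginase-1, read 13, 33 and 29 after IL-4, 6, 5 and 14 after LPS and 6, 7 and 15 in untreated cells. It passed as higher after IL-4 than in untreated cells (1.33, adjusted p = 0.044), and against LPS there was a difference of -1.50 ± 0.44 that did not pass without replicate 2 (adjusted p = 0.18) or with replicates 2 and 3 averaged (adjusted p = 0.054).

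The 5 members of this list that were higher after LPS were Kdm6b, Bcl6, Tgm2, Egr2 and Il4i1. Il4i1 (1.09) did not pass in 4 of the alternatives, namely without IL-4 replicate 3 (0.77), without replicate 3 of all groups (0.82), with equal totals (0.72) and with replicates 2 and 3 averaged (0.97). Kdm6b, a demethylase of histone H3 lysine 27, read 1468, 1145 and 1035 after LPS, 72, 78 and 96 after IL-4 and 24, 20 and 25 in untreated cells (3.87 ± 0.29). Tgm2, a transglutaminase, read 1499, 1544 and 1626 after LPS, 238, 477 and 500 after IL-4 and 74, 87 and 97 in untreated cells (2.01 ± 0.22). For both genes the 3 groups were separate, with LPS highest and IL-4 between. Bcl6, a transcriptional repressor, read 900, 721 and 754 after LPS and 81, 100 and 102 after IL-4, the latter below each of its untreated values of 143, 115 and 119, a fall against untreated that did not pass (adjusted p = 0.065).

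Components of the 2 receptor pathways spread over both directions. Of 32 tested TLR4 signalling genes 16 were higher after LPS and 10 after IL-4, against 20% and 36.9% of all tested genes, with a median of 0.28. When all samples were set to the same total these became 13 and 12 with a median of -0.11. At the receptor the parts moved apart. Tlr4 itself (chr4:66827551-66846581, plus strand) read 98, 187 and 155 after LPS, 517, 825 and 866 after IL-4, and 304, 356 and 388 in untreated cells. Its 3 groups did not overlap (direct difference -2.33 ± 0.25, limma adjusted p = 4.1e-08), and against untreated it fell by 1.29 after LPS and rose by 1.04 after IL-4. Cd14, its co-receptor, read 310, 393 and 371 after LPS, 21, 16 and 23 after IL-4 and 22, 22 and 30 in untreated cells (4.10 ± 0.28), whereas Ly96, which encodes MD-2, differed by 0.08 ± 0.16 (adjusted p = 0.71).

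Below the receptor, the adaptors Myd88 (2.47 ± 0.20) and Ticam1, which encodes TRIF (1.67 ± 0.23), and the kinase Irak2 (3.20 ± 0.13) were higher after LPS. Mapkapk2, the p38-activated kinase that stabilises cytokine mRNA, read 32664, 15346 and 18049 after LPS and 671, 487 and 434 after IL-4 (5.32 ± 0.28), and it overlaps another gene on the same strand. Map3k8, the ERK-activating kinase TPL2, was higher after IL-4, at 1055, 913 and 942 against 353, 352 and 453 after LPS and 396, 318 and 374 in untreated cells. Its LPS and untreated values overlapped (direct difference -1.33 ± 0.13). Mapk14, which encodes p38α, was also higher after IL-4 (-0.67 ± 0.09), with IL-4 values that overlapped the untreated ones. The ubiquitin ligase Traf6 had values of 163, 204 and 219 after LPS and 185, 216 and 205 after IL-4, against 100, 84 and 115 in untreated cells (-0.06 ± 0.19, adjusted p = 0.83).

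Of the 24 tested IL-4 receptor signalling genes 9 were higher after LPS and 8 after IL-4, the latter close to the share of all tested genes (36.9%), with a median of 0.16. With equal totals these were 9 and 11 with a median of -0.22. The receptor chains parted here too. Il4ra read 1004, 624 and 727 after IL-4, 285, 254 and 277 after LPS and 427, 397 and 471 in untreated cells (-1.50 ± 0.20), whereas Il2rg, the common γ chain, read 225, 339 and 288 after LPS and 34, 25 and 30 after IL-4 (3.21 ± 0.30). Stat6 itself was higher after LPS, at 502, 498 and 416 against 150, 179 and 177 (1.48 ± 0.14).

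The SOCS feedback inhibitors split by stimulus. Socs1, Socs2 and Cish were higher after IL-4, whereas Socs3 read 248, 219 and 275 after LPS, 5, 9 and 11 after IL-4 and 3, 2 and 5 in untreated cells (4.79 ± 0.34). Cish read 54, 32 and 48 after IL-4, 12, 11 and 16 after LPS and 1, 5 and 1 in untreated cells (-1.69 ± 0.33), so LPS had raised it too, by 2.26 against untreated. Irs2, an adaptor of the IL-4 and insulin receptors, read 224, 280 and 259 after LPS and 214, 170 and 164 after IL-4, with untreated values of 60, 49 and 47 and a direct difference of 0.48 ± 0.30 (adjusted p = 0.19). It passed as higher after LPS without replicate 1 (0.69, adjusted p = 0.0068) and in the fits of only the 6 samples without and with the replicate block (adjusted p = 0.028 and 0.0087).

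Interferon-responsive genes divided into members that differed widely and members that did not pass. Of 24 tested 12 were higher after LPS and 3 after IL-4, with a median of 0.49, which was 0.72 with median-of-ratios scaling and 0.11 with equal totals, where 6 were higher after IL-4. Of those tested, 3 were under 10 in every IL-4 sample. Gbp5, a guanylate-binding GTPase, read 2368, 1811 and 1638 after LPS and 81, 48 and 48 after IL-4 (5.04 ± 0.19), and the transcription factor Irf1 read 1303, 742 and 862 against 105, 67 and 93 (3.42 ± 0.26). The 3 members higher after IL-4 were Stat2, Irf7 and Usp18. Stat2, a subunit of the interferon-activated factor ISGF3, read 385, 338 and 358 after IL-4, 134, 102 and 125 after LPS and 194, 225 and 245 in untreated cells (-1.58 ± 0.17), and overlaps another gene on the same strand. Ifnb1, which encodes interferon-β, did not pass the filter, with a mean of 5 after LPS and 0 after IL-4.

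Among mRNA decay regulators 13 of 14 were tested, 5 were higher after LPS and 2 after IL-4, and the median was 0.00. Of all tested genes 20% and 36.9% were. With equal totals 6 were higher after IL-4 and the median was -0.36. Zfp36, which encodes tristetraprolin, a protein that marks cytokine mRNA for decay, read 3091, 2774 and 3331 after LPS, 181, 172 and 212 after IL-4 and 188, 194 and 328 in untreated cells (4.02 ± 0.18). Btg2, an anti-proliferative adaptor of the deadenylation machinery, read 162, 154 and 195 after LPS, 3, 1 and 6 after IL-4, and 22, 30 and 46 in untreated cells. Its untreated values lay between the stimulated groups, and the direct difference was 5.48 ± 0.33. Zfp36l2 read 38, 20 and 19 after LPS, 24, 24 and 25 after IL-4 and 138, 113 and 139 in untreated cells. It fell by 2.36 on the log2 scale after each stimulus, and the direct difference was 0.00 ± 0.30 (adjusted p = 0.99).

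The remaining lists had members on both sides, where 20% of all tested genes were higher after LPS and 36.9% after IL-4. Growth factor and homing receptors had 5 of 17 higher after LPS and 4 after IL-4 with a median of 0.21, and 3 and 6 with a median of -0.18 with equal totals. The genes the study chose as intended targets of its inhibitors, a list not independent of these samples, had 13 of 38 higher after LPS and 14 after IL-4, the latter close to the share of all tested genes (36.9%), with a median of -0.01. They had 16 and 12 with a median of 0.21 under median-of-ratios scaling and 10 and 18 with a median of -0.39 with equal totals. Among them Dck, deoxycytidine kinase, read 221, 312 and 339 after IL-4, 34, 34 and 44 after LPS and 55, 100 and 128 in untreated cells (-2.91 ± 0.24), and Btk differed by -1.74 ± 0.17. Heat shock genes had 4 of 6 higher after LPS and 2 after IL-4 (median 0.72), or 2 and 2 with equal totals (median 0.35), with Hsp90ab1 at 3.04 ± 0.28 and Hsph1 at -2.65 ± 0.41. The 13 macrophage markers had a median of 0.53, with 7 higher after LPS, Cd14 among them, and 3 higher after IL-4, among them the integrin Itgam (-1.05 ± 0.14) and the Fc receptor Fcgr1 (-1.65 ± 0.22). With equal totals their balance turned, to 4 higher after LPS and 5 after IL-4 with a median of 0.15.

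Besides Ahr, Rhoh, Btbd3 and Plekhf1, further genes lay above untreated after IL-4 and below it after LPS. The following were picked after their values were seen, as the widest of those at least 2-fold from untreated on each side, so they are a description. Lpxn, which encodes the focal adhesion protein leupaxin, read 3213, 3499 and 3508 after IL-4, 762, 907 and 926 in untreated cells and 193, 407 and 416 after LPS. Snx2, a retromer-associated sorting nexin, read 1881, 2294 and 2457 after IL-4, 691, 616 and 548 in untreated cells and 104, 154 and 231 after LPS. The order was the same in Ms4a4a and Ms4a6d, tetraspanning membrane proteins of myeloid cells, with direct log2 differences of -3.42 and -2.86, and in the cannabinoid receptor Cnr2 (-3.36) and the kynurenine enzyme Kmo (-3.25).

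The reverse order, above untreated after LPS and below it after IL-4, was seen in members of the lists. Nfkbid lay 3.48 above untreated after LPS and fell by 1.09 after IL-4 on the log2 scale. Bcl3, a nuclear IκB protein, lay 1.77 above and fell by 1.42. The lectin receptor Clec4d lay 3.36 above after LPS and fell by 1.05 after IL-4, and the platelet-activating factor receptor Ptafr lay 2.10 above and fell by 1.55. Fos, the AP-1 subunit, read 77, 80 and 116 after LPS, 10, 4 and 10 after IL-4 and 15, 19 and 45 in untreated cells.

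**Figure D4:**
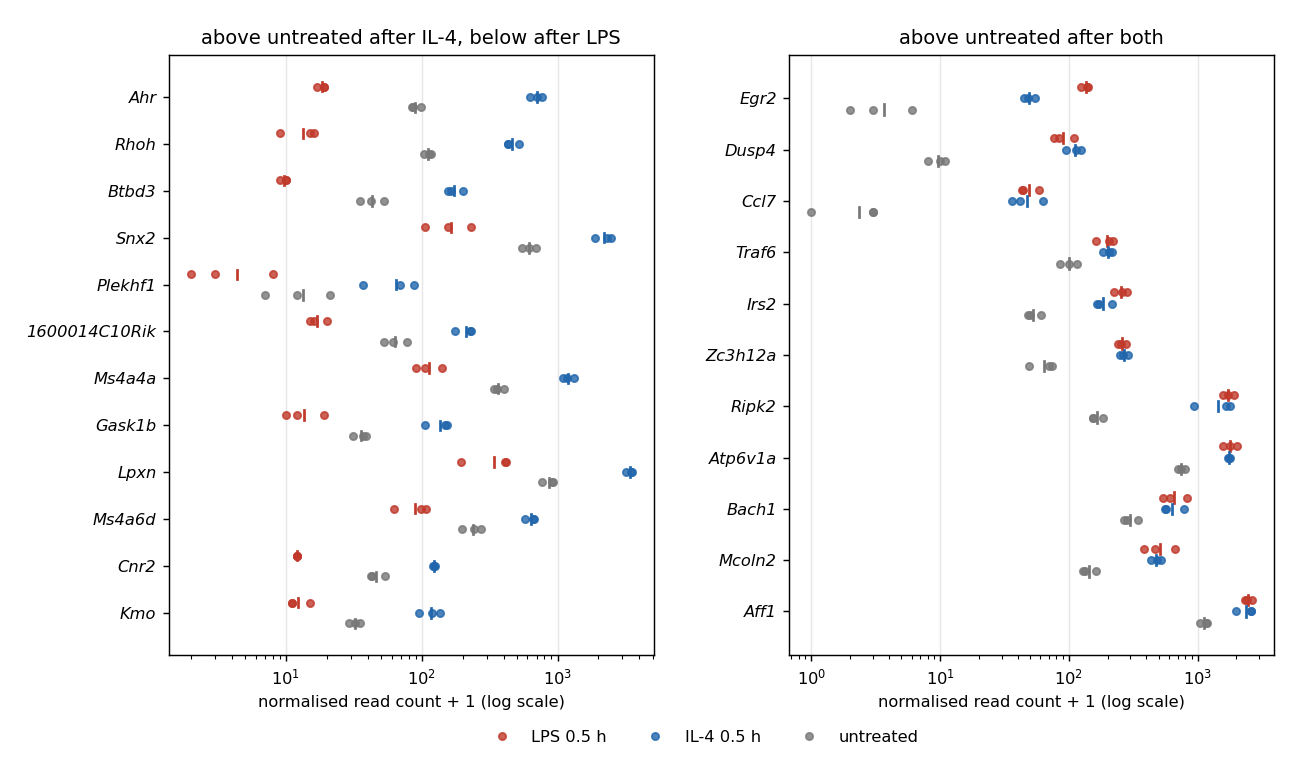
Normalised read counts plus 1 (x axis, log scale) in each sample, with a tick at the mean of each group (n = 3; red LPS, blue IL-4, grey untreated). The 12 genes on the left, picked for this order, have all IL-4 dots above and, except for 1 dot of Plekhf1, all LPS dots below the untreated dots; the 11 genes on the right have both stimulated groups above the untreated dots, and the red and blue dots of Zc3h12a, Atp6v1a, Bach1, Mcoln2 and Aff1 overlap.

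At the other end of the comparison stood genes that both stimuli had raised to a similar level. The 5 with the smallest direct difference among protein-coding genes at least 2-fold above untreated after both were Atp6v1a, Zc3h12a, Bach1, Mcoln2 and Aff1, and the small difference is what chose them. Zc3h12a, which encodes the endonuclease regnase-1, read 279, 254 and 242 after LPS, 288, 262 and 247 after IL-4, and 69, 48 and 73 in untreated cells. Atp6v1a, the catalytic subunit of the lysosomal proton pump, read 2038, 1780 and 1580 after LPS, 1742, 1781 and 1720 after IL-4 and 795, 707 and 746 in untreated cells. With equal totals 3 of these 5 passed 0.05 as higher after IL-4: the difference of Zc3h12a moved from -0.04 to -0.42 (adjusted p = 0.0099), that of Atp6v1a turned from 0.03 to -0.35 (adjusted p = 0.0072) and that of Aff1 from 0.06 to -0.33 (adjusted p = 0.012). Dusp4 (-0.69), Srf (-0.70) and Traf6 (-0.44) passed in that setting too. The kinase Ripk2, which acts below NOD receptors, also rose after both, to 1577, 1915 and 1726 after LPS and 933, 1657 and 1772 after IL-4 from 185, 152 and 154 (direct difference 0.31 ± 0.19, adjusted p = 0.18). It passed as higher after LPS with median-of-ratios scaling (0.54) and with the replicate block in a fit of only the 6 samples (adjusted p = 0.039).

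Non-coding genes leaned less to IL-4 than protein-coding ones, and the part of overlap, level and scaling in this was not tested. Of all tested genes 5978 overlap another gene on either strand, and whether counting used strand is not stated. Of 1842 tested non-coding RNA genes 446 (24.2%) were higher after LPS and 339 (18.4%) after IL-4, against 1901 (19.2%) and 4046 (40.9%) of 9899 protein-coding genes. Among those that overlap no other gene, Gm34746 (chr4:117699075-117704020, plus strand) read 843, 1305 and 862 after LPS and 29, 39 and 60 after IL-4, and Gm34455 (chr17:26467654-26504347, minus strand), which begins past the 3′ end of Dusp1 on the same strand, read 48, 50 and 60 after LPS and 0, 2 and 1 after IL-4, at least 17.6-fold higher. The largest such difference on the IL-4 side was that of Gm40950 (chr13:52954401-52967188, plus strand), at 76, 51 and 53 after IL-4, 6, 3 and 6 after LPS and 4, 6 and 4 in untreated cells (-3.37 ± 0.32). The other named ones were Gm35363, Gm30474 and Gm30073 on the LPS side (4.58, 4.42 and 4.30) and Gm16675, Zfp33b, Gm46228 and Gm49249 on the IL-4 side (-2.46, -2.15, -2.15 and -1.69).

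The direction of the difference varied with the length of the gene from start to end. In protein-coding genes the share higher after IL-4 was 26.4% under 5 kb, 49.2% from 10 to 20 kb, 50.9% from 20 to 50 kb and 13.5% over 100 kb, while the share higher after LPS stayed between 16.4% and 25%. Differences of at least 8-fold towards LPS were called in 7.0% of genes under 5 kb, and the share was lower in each longer class, down to 0.547% over 100 kb. The median span was 27.5 kb over all tested protein-coding genes, 14.5 kb for those at least 8-fold higher after LPS and 19.9 kb for those at least 8-fold higher after IL-4. The level moved with span, from a median IL-4 mean of 19.7 in the shortest class to 368 in the longest. The shares differed among protein-coding genes with a mean of at least 100. Higher after LPS were 64.7% under 5 kb, 31.4% from 20 to 50 kb and 26.9% over 100 kb. Higher after IL-4 were 7.35%, 38.8% and 14.5%, with a peak of 41.9% from 50 to 100 kb. The shares by span thus changed with the level of the genes kept, and the part of level was not tested.

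**Figure D5:**
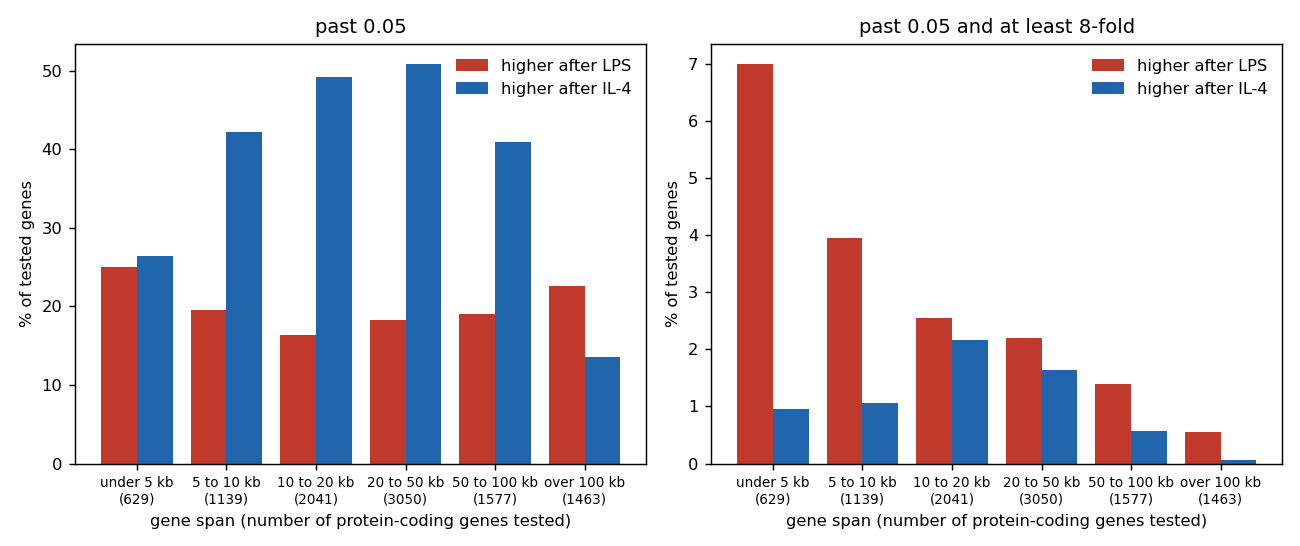
Share of tested protein-coding genes (y axis, %) called higher after LPS (red) and after IL-4 (blue) by gene span (x axis, kb, with the number tested), for all calls (left) and for calls of at least 8-fold (right). The blue bars peak at 20 to 50 kb (50.9%) and are lowest over 100 kb (13.5%), and the red bars of the right panel step down from 7.0% to 0.547%.

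The promoter motifs were counted in the 300 bases around each start site, 250 before and 50 after, on both strands and with overlapping matches kept. A RefSeq promoter was matched for 9373 of the 11941 tested genes, among them 8001 protein-coding ones. The NF-κB consensus was found in 5.20% of these 8001, in 10.4% of the 905 at least 2-fold higher after LPS, and in 16.1% of the 192 at least 8-fold higher after LPS. On the IL-4 side it was found in 3.94% of the 2004 at least 2-fold higher, in 5.88% of the 102 at least 8-fold higher, in 5.59% of the 143 that were also at least 2-fold above untreated, and in 3 of 17 promoters of the IL-4-responsive list. In the NF-κB list it was found in 9 of 18 promoters, those of Nfkbia, Tnip3, Nfkb2 and Rel shown above among them, and in the chemokine list in 4 of 7.

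The STAT6 site TTCNNNNGAA was found in 5.26% of all 8001 promoters, in 3.98% of those at least 2-fold higher after LPS, in 6.04% of those at least 2-fold higher after IL-4 and in 8.82% of the 102 at least 8-fold higher after IL-4. Of the 143 genes at least 2-fold higher after IL-4 than after LPS and also at least 2-fold above untreated, 10.5% held it. The CRE was found in 3.46% of all, 5.30% of the 2-fold LPS set and 2.64% of the 2-fold IL-4 set, and the CArG box in 1.32%, 1.66% and 1.1%. The NF-κB consensus overlapped a STAT6 site in 3 promoters and a CArG box in 1. These counts describe letters in the window and no binding was measured, so a match is not a known site, and the shares were not tested.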

How the data were processed

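Chromatin-associated RNA of the BMDM samples was amplified by the authors with the Smart-seq2 procedure and random primers and sequenced on a NextSeq500. The submitters' processing notes name TopHat2 2.1.1, bedtools 2.29.2, DESeq2 and R 3.6.2 and the mm10 genome. The authors counted reads per gene of the GRCm38.p6 annotation, scaled the samples on genes taken as invariant and deposited the result, rounded, which makes each value a score (a normalised read count) and not a raw count. A count test laid down for the comparison was therefore not run. Strand of the counting is not given in the sources used here.

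Columns were matched to samples by their labels. Values were tested as log2(value + 1) in 1 fit over all 27 samples with limma 3.58.1 in R 4.3.3, with a mean-variance trend, a contrast of LPS and IL-4 at 0.5 h, and Benjamini-Hochberg adjustment over the 11941 genes with at least 10 in at least 3 of the 6 samples. These genes held 99.2% of the normalised read counts of the 6 samples. The untreated samples served as a reference. A value at or under 3 counts in every sample of a group was set to a floor of 3 for fold changes.

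Named genes were (a) members of 22 lists with 404 symbols, (b) the 12 protein-coding genes with the largest difference in each direction among those past 0.05, with a mean of at least 50 in the higher group and no overlap of values, (c) the 5 such non-coding genes that overlap no other gene, and (d) the 5 protein-coding genes with the smallest difference among those at least 2-fold above untreated after both stimuli. Members, lists and rules were chosen with earlier results of these data known. Deviations from the group means of same-numbered LPS and IL-4 samples correlated at 0.69, 0.32 and 0.47 for replicates 1, 2 and 3. A pairing by number was thus read from the data and not from the labels. The main fit did not use this pairing, which entered the model only as the replicate block of the alternatives. Replicates 2 and 3 correlated across numbers as well (0.35 and 0.34), so this check set replicate 1 apart but not 2 from 3.

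The fit was tested on simulated data with 200 changed genes among 11941: 65% of 2-fold and 98% of 4-fold changes were recovered, with 12 false calls and none of the wrong sign. The changed genes were drawn above a low cut-off in untreated cells. Noise was independent for each sample, without the shift of replicate 1 or of scale, and far fewer genes changed than the 6802 called. The figures therefore check the working of the fit and give no error rate for the real samples. Alternatives covered scaling, pseudocount, filter, samples in the fit, replicate block and leaving out samples. Promoter sequences and motifs came from the RefSeq table of GRCm38.p6.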

Additional observations from a re-analysis of the deposited data

Results flagged for a closer look

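The direct difference between LPS and IL-4 at 0.5 h was compared with that at 4 h for the 24 leading genes in the same limma model, and 19 of them differed between the times (adjusted p under 0.05 over all genes), as did 56.5% of all tested genes. The 24 were chosen for their large differences at 0.5 h, which leans the comparison towards a wider gap at 0.5 h, so the count and the direction are descriptions. The values below are the log2 difference of LPS minus IL-4 at 0.5 h minus that at 4 h.

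Among the genes higher after LPS, the gap was wider at 0.5 h for Gem (4.40), Cxcl2 (3.24), Tnfsf9 (2.60), Il1a (1.84) and Nfkbiz (1.07). Gem, the small GTPase, had a mean of 6.67 after 4 h of LPS, against values of 109 to 189 at 0.5 h. The gap was narrower at 0.5 h than at 4 h for Ccl5 (-2.47), Acod1 (-2.05) and Clec4e (-1.32). Acod1, the itaconate enzyme, had a mean of 11445 after 4 h of LPS and 8.33 after 4 h of IL-4.

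Among the genes higher after IL-4, the gap was wider at 0.5 h for Socs1 (-5.51), Rhoh (-3.75), Tgds (-3.35), Rgs18 (-2.24), Zfp120 (-1.89), Aga (-1.72), Plekhf1 (-1.57), Ahr (-1.20) and Cd200r1 (-0.91). Socs1 had means of 138 after LPS and 139 after IL-4 at 4 h, a log2 difference of 0.0046 (limma adjusted p = 0.99). The gap was narrower at 0.5 h for Pdcd1lg2 (1.87), whose mean after 4 h of IL-4 was 582, and for Abcd2 (1.08). Tnf, Il1b, Cxcl10, Traf1 and Btbd3 did not pass this test.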

How the results depend on the processing

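The numbers of genes called moved with the filter and the scale. With a mean of at least 50, 3869 genes differed, 2129 were higher after IL-4, and the 2-fold counts were 931 (LPS) and 942 (IL-4). With equal totals 1562 genes were higher after LPS and 3991 were at least 2-fold higher after IL-4. Among genes that overlap no other gene, a setting chosen after seeing the data, 3808 differed, 1170 were higher after LPS and 2638 after IL-4, and the 2-fold counts were 754 and 1663, with fewer genes tested in that setting and in the first. Leaving out samples gave 5222 to 7265 differing genes, 1789 to 2672 higher after LPS, 3433 to 4593 higher after IL-4, 1312 to 1440 at least 2-fold higher after LPS and 2468 to 2776 after IL-4. In 5 named genes the sign turned, each with equal totals: Atp6v1a (-0.35), Aff1 (-0.33), Irf9 (-0.35), Il15 (-0.050) and Map3k7 (-0.00078), where the scale itself shifts all genes. With the replicate block 7515 genes differed, 2735 higher after LPS and 4780 after IL-4. With the block in a fit of only the 6 samples, a setting also chosen after seeing the data, 7806 differed, against 6391 in that fit without the block. Averaging replicates 2 and 3, which were more alike than either was to replicate 1, gave 5592. Among the named genes and list members 130 calls were lost and 83 gained over all settings, those given beside their genes included. The depth behind the values is unknown, so no limit from counting can be given for single genes.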

Other observations

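Gene families named by symbol, chosen after their values were seen, differed in how they leaned. Of 250 tested Zfp genes, most of which encode zinc finger proteins, 166 (66.4%) were higher after IL-4 and 18 (7.20%) after LPS, with a median log2 difference of -0.99, and 172 were below untreated after LPS. Of all tested genes 36.9% were higher after IL-4. The Nduf genes, which encode subunits and assembly factors of respiratory complex I, had 27 of 32 (84.4%) higher after IL-4 and 1 higher after LPS, with a median of -2.05 against IL-4, -2.09 for LPS against untreated and 0.02 for IL-4 against untreated. Mitochondrial ribosomal protein genes (Mrp) had 31 of 46 (67.4%) higher after IL-4 and 6 higher after LPS, with a median of -1.21. The cytoplasmic ribosomal protein genes (Rpl and Rps) had 11 of 53 higher after IL-4 and 4 higher after LPS, with a median of -0.09.

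Some families of membrane and vesicle proteins had similar counts in both directions, where all tested genes had 20% higher after LPS and 36.9% after IL-4. Solute carriers (Slc) had 53 of 174 (30.5%) higher after LPS and 58 (33.3%) higher after IL-4. Rab genes, which encode GTPases of vesicle traffic, had 15 (30%) and 17 (34%) of 50. The IL-4 shares of both were close to that of all tested genes. Smaller families differed. The Ms4a family of myeloid membrane proteins had 5 of 9 higher after IL-4 and 1 higher after LPS, with a median of -1.32. The inhibitory and activating Cd300 receptors had 4 of 6 higher after IL-4 and none higher after LPS, with a median of -1.63. Atp6v genes had 3 of 14 higher after IL-4 and 5 higher after LPS (median 0.07). Gpr genes had 9 of 25 in each direction (median -0.10). Families differ in level and span, both of which move with the share of genes called, and their part was not tested.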
